A study of Mus musculus with 40 samples.

Results

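The genes described here are 8 developmental transcription factors outside the HOX clusters that are known to mark body position, Tbx15, Shox2, Tcf21, En1, Irx3, Irx5, Nr2f1 and Hand2. They were taken by name from a table of 55270 genes, and all 8 were found in it. The table held RNA sequencing values from fat of C57BL/6J mice in 40 libraries, 5 in each of 8 groups. Beta-carotene, the vitamin A precursor from plants, is the drug in the series description; the labels give neither its dose, the duration of diet or drug, nor the age of the mice.

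The groups were HFD (high-fat diet) with drug, HFD, normal diet with drug and normal diet, each once with the tissue label visceral fat and once with the label subcutaneous fat. No genotype other than the inbred strain C57BL/6J was given. A library is called by its group together with its title number. Whether the libraries of a group come from different animals is not stated, and p-values therefore measure the spread between libraries only, which may be technical.

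Fat pads keep a record of where in the body they formed. Precursor cells of each pad go on expressing the position genes of the embryonic tissue they came from, and these genes tell subcutaneous from visceral pads more sharply than most genes of fat metabolism do. In mice, Tbx15, Shox2 and En1 are known from subcutaneous pads, while Tcf21 is known from precursor cells of visceral pads such as the epididymal pad. Irx3 and Irx5 are neighbouring Iroquois homeobox genes next to Fto, studied for their part in the heat-producing programme of fat cells. Nr2f1 encodes COUP-TFI, an orphan nuclear receptor of the developing brain and mesenchyme, and Hand2 encodes a factor of the developing heart, limb and sympathetic neurons.

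Counted reads per library, recovered from the deposited values, were 15.4 to 27 M with a median of 20.3 M. The tissue labels were checked against 8 mesothelial genes, which mark the lining of visceral pads. Their summed level was 3.96 to 21.6 TPM in the 20 libraries labelled visceral and 67.2 to 385 TPM in the 20 labelled subcutaneous, so this marker list ran against the labels in 40 of 40 libraries. Tbx15, Shox2, En1 and Tcf21, described below, also lay on the side opposite to the one they are known from. Whether the labels were exchanged was not tested, and no library was moved to another group. Libraries are therefore called "labelled visceral" and "labelled subcutaneous" throughout, and a difference between labels is given as labelled visceral over labelled subcutaneous. Titles end in i for libraries labelled visceral and in e or ewat for those labelled subcutaneous. B lymphocyte genes exceeded a sum of 1000 TPM in 12 libraries labelled visceral, and genes of epididymis and testis exceeded a sum of 500 TPM in 6 labelled subcutaneous; results that depend on these libraries are given with and without them.

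Promoter sequences, the 250 bases before a gene's start, were at hand for 6 of the 8 genes from RefSeq on build GRCm38.p6. Those of En1, Shox2 and Tcf21 are shown because these 3 genes differed most sharply between the labels among the genes with a sequence, the first and the second of them in one direction and Tcf21 in the other. All are written from 5′ to 3′ on the gene's own strand, in lower case, with each match to CANNTG, the E-box bound by basic helix-loop-helix factors such as Tcf21 and Hand2 themselves, in capitals.
En1, chr1:120602237-120602486, plus strand: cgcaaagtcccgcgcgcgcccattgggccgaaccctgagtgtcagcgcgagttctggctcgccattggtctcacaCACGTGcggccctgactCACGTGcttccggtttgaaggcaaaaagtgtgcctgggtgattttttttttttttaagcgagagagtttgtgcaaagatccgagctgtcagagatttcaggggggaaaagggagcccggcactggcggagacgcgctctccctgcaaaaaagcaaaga
Shox2, chr3:66981772-66982021, minus strand: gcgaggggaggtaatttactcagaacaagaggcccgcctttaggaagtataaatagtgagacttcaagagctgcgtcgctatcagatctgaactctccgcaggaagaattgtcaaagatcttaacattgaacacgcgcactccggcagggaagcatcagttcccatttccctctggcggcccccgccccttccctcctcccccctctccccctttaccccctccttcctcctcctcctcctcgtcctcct
Tcf21, chr10:22820144-22820393, minus strand: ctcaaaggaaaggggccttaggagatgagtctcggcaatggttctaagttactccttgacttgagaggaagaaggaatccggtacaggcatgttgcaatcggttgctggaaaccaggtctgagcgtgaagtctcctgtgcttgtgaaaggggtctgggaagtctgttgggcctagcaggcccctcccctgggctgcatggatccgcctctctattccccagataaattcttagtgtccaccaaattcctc

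The En1 stretch held 2 matches to CANNTG, both with the letters CACGTG, which lie 175 and 158 bases before the start. The Shox2 and Tcf21 stretches held none. CANNTG reads the same on both strands and occurs in 66.2% of the 32851 promoters of that length in the table, while CACGTG, one of its forms, occurs in 6.02%. TATAAA, searched on both strands, was found once in the Shox2 stretch, in neither of the others, and in 12.4% of all promoters. The En1 stretch had 19 CG dinucleotides, the Shox2 stretch 11 and the Tcf21 stretch 5, against a median of 6 over all promoters. These matches are letters in a window and were not tested as binding sites.

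Tbx15, Shox2 and En1 were high in all 20 libraries labelled visceral and low or near 0 in all 20 labelled subcutaneous. Tcf21 was the reverse and all but missing in libraries labelled visceral. Irx3 and Nr2f1 were present under both labels and lower in libraries labelled visceral, with overlapping libraries. Hand2 was low in libraries labelled subcutaneous and near 0 in those labelled visceral, also with overlap. Irx5 was low everywhere. Levels are given as the authors deposited them, in TPM, a read count divided by the gene's length and brought to the same total in every library, unless another scale is named.

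**Figure D1:**
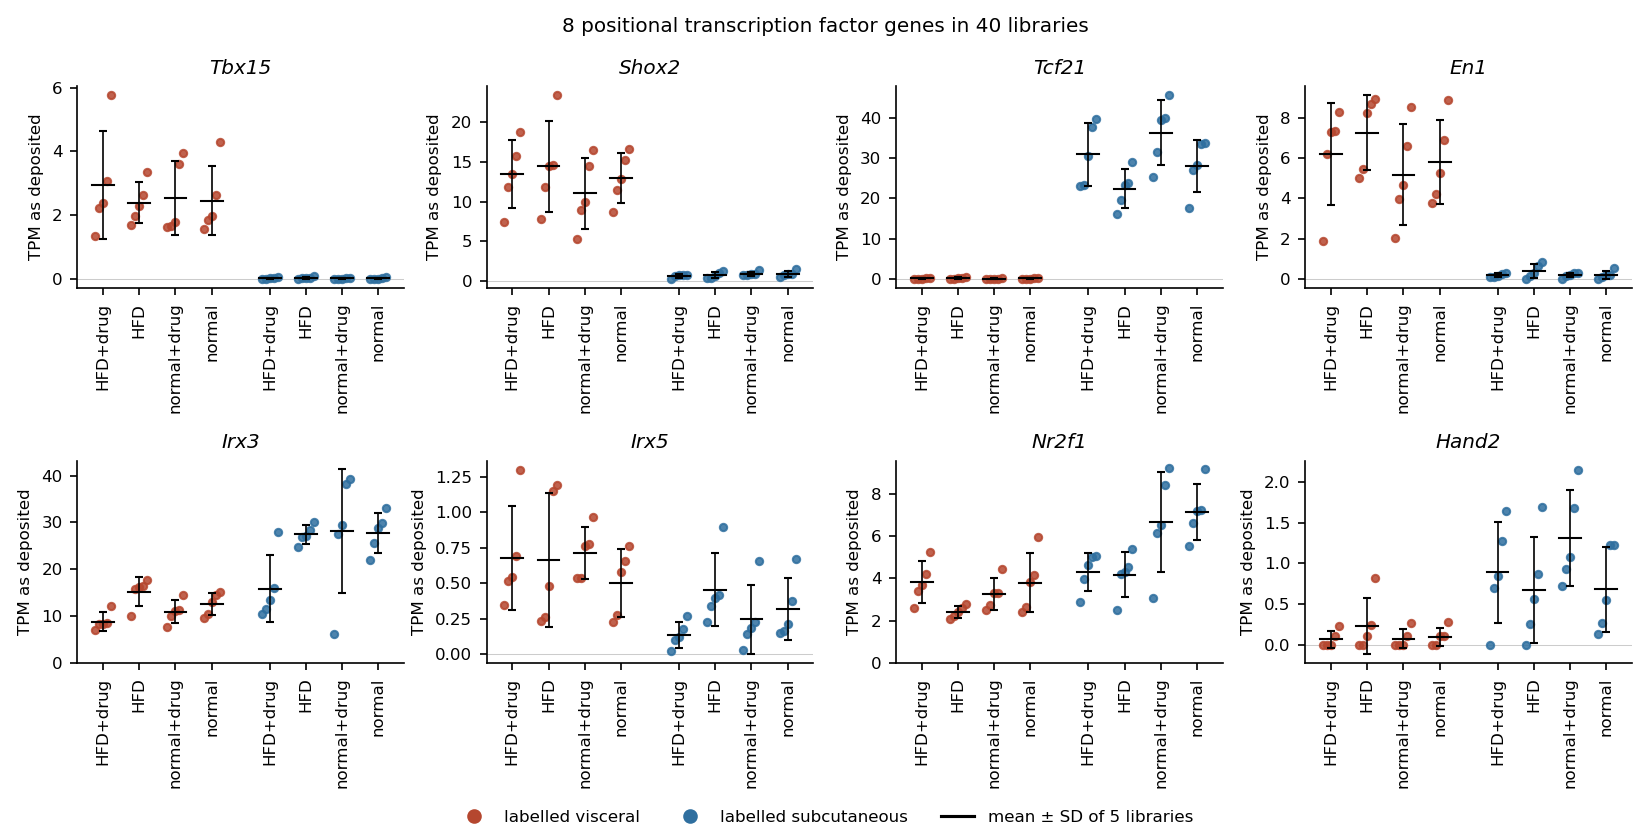
Deposited TPM of each of the 8 genes in every library, by group, with the mean and SD of 5 libraries; libraries labelled visceral are on the left and those labelled subcutaneous on the right of each panel. Tbx15, Shox2 and En1 lie high on the left and near 0 on the right, Tcf21 lies between 16.2 and 45.6 TPM on the right and at or under 0.365 TPM on the left, and the other 4 genes overlap.

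Tbx15 encodes a T-box factor of subcutaneous fat precursors and of fast muscle fibres. It was at 1.34 TPM in the lowest, 2.26 TPM in the median and 5.76 TPM in the highest library labelled visceral. In libraries labelled subcutaneous it was at 0, 0.0125 and 0.0929 TPM. The lowest library of the one label was above the highest of the other. The 20 libraries labelled visceral held 15144 Tbx15 reads together and the 20 labelled subcutaneous held 115, a ratio per counted read of 128 (95% exact interval 107 to 155, for counting error only).

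Shox2, a short stature homeobox gene of the limb, ranged from 5.35 to 23.4 TPM with a median of 13.1 TPM in libraries labelled visceral. In libraries labelled subcutaneous it ranged from 0.260 to 1.5 TPM with a median of 0.761 TPM. It remained detectable under both labels, at 144 to 497 reads per library labelled visceral and 7 to 30 reads per library labelled subcutaneous. En1, the engrailed homeobox gene of the ventral limb and of trunk dermis, had 1.86, 6.42 and 8.93 TPM in the lowest, median and highest library labelled visceral. It had 0, 0.177 and 0.851 TPM in those labelled subcutaneous. Neither gene overlapped between the labels.

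Tcf21, a basic helix-loop-helix factor, had between 0 and 2 reads in each of the 20 libraries labelled visceral, with none in 12 of them. It had 106 to 326 reads in each library labelled subcutaneous. In TPM this was 0, 0 and 0.365 in the lowest, median and highest library labelled visceral, against 16.2, 28.7 and 45.6 labelled subcutaneous. Of all reads, 12 fell on Tcf21 in libraries labelled visceral and 3995 in those labelled subcutaneous, a ratio per counted read of 0.00292 (95% exact interval 0.00151 to 0.00511). A library with no read still allows up to 3 reads at this depth, so absence is not shown. In bulk tissue, fewer cells of a type and less RNA per cell cannot be told apart, here and below.

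Irx3 was at 6.93, 11.2 and 17.7 TPM in the lowest, median and highest library labelled visceral and at 6.26, 27.3 and 39.2 TPM in those labelled subcutaneous. The lowest value labelled subcutaneous, 6.26 TPM, came from normal diet with drug library 9, where epididymis and testis genes summed to 43781 TPM and adipocyte genes to 8098 TPM. The next lowest libraries of that label were at 10.5 TPM and above. Nr2f1 was at 2.09, 3.03 and 5.93 TPM labelled visceral and at 2.48, 5.23 and 9.20 TPM labelled subcutaneous. The labels overlapped in both genes.

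Hand2 reached at most 0.818 TPM in libraries labelled visceral, where 10 of 20 had no read, and at most 2.15 TPM in those labelled subcutaneous, where 2 had none. Irx5 had 0.226 to 1.30 TPM labelled visceral and 0.0206 to 0.898 TPM labelled subcutaneous. These are 11 to 67 reads per library labelled visceral and 1 to 38 per library labelled subcutaneous.

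The difference between labels was tested with limma on log2(TPM + 1), with Benjamini-Hochberg adjustment across the 19859 genes that reached 1 TPM in at least 5 of the 40 libraries; 7 members passed that filter and Irx5 did not. Averaged over the 4 treatments, 7 of 7 tested members differed at an adjusted p under 0.05, 3 higher and 4 lower in libraries labelled visceral. Of all genes tested, 36.8% were called, 13.2% higher and 23.7% lower. The lack of overlap is rarer: it held for Tbx15, Shox2, Tcf21 and En1 and for 0.438% of the genes tested (0.156% higher and 0.282% lower in libraries labelled visceral). These members were listed with such differences in view, so the counts describe them and support nothing further. The log2 difference was 2.91 for Shox2 (SE 0.120, adjusted p = 8.16e-20), 2.46 for En1 (SE 0.132, adjusted p = 1.82e-16) and 1.75 for Tbx15 (SE 0.102, adjusted p = 1.75e-15). It was -4.76 for Tcf21 (SE 0.084, adjusted p = 4.00e-31), the third largest decrease among all genes tested on this scale of deposited TPM.

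The smaller differences were -0.94 for Irx3 (SE 0.143, adjusted p = 5.29e-06), -0.70 for Hand2 (SE 0.121, adjusted p = 3.44e-05) and -0.58 for Nr2f1 (SE 0.102, adjusted p = 3.91e-05), against a median of -0.05 over all genes. Without the libraries rich in B cell or epididymis genes, which left 8 libraries labelled visceral and 14 labelled subcutaneous, Hand2 had a log2 difference of -0.59 and did not pass (limma adjusted p = 0.0958), while Irx3 (-1.04) and Nr2f1 (-0.84) did. Irx5, tested with no filter, was higher in libraries labelled visceral by 0.34 (SE 0.082, limma adjusted p = 0.00262). Its neighbour Irx3 thus differed in the other direction. There were 11 genes and no protein-coding gene between Irx3 and Irx5 in the reference annotation. Fto, whose introns hold regulatory elements known to act on both, did not pass the test (1.68 ± 0.221 TPM labelled visceral and 1.63 ± 0.186 TPM labelled subcutaneous, SD, n = 20 each; log2 difference 0.02, SE 0.045, limma adjusted p = 0.745).

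**Figure D2:**
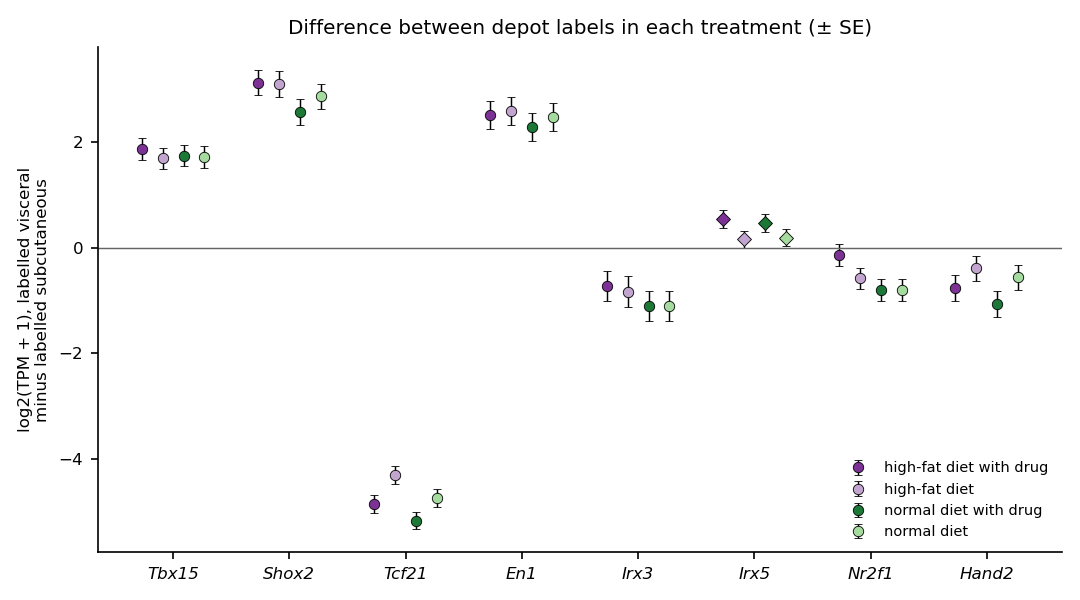
Difference in mean log2(TPM + 1), labelled visceral minus labelled subcutaneous, in each of the 4 treatments, with the SE from limma (5 libraries per label and treatment; Irx5, drawn as diamonds, is from the fit with no filter). Tbx15, Shox2 and En1 lie between 1.69 and 3.12, Tcf21 lies between -5.16 and -4.30, and the other 4 genes lie between -1.10 and 0.54.

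Within single treatments the 4 genes without overlap passed the test each time. On HFD with drug, 5 of 7 members passed (15.4% of all genes), on HFD 4 of 7 (2.19%), on normal diet with drug 7 of 7 (14.1%) and on normal diet 6 of 7 (8.00%). The counts of all genes behind these shares moved by over 1.5 times on HFD (435, and 270 or 278 without library 22 or 50 labelled subcutaneous), on normal diet with drug (2794, and 1824 without library 6 labelled visceral) and on normal diet (1588, and 967 to 1018 without library 91 or 92 labelled subcutaneous or 99 labelled visceral). The differences of Tbx15 were 1.87, 1.69, 1.74 and 1.71 in that order of treatments, those of Shox2 were 3.12, 3.10, 2.57 and 2.86, and those of En1 were 2.51, 2.58, 2.29 and 2.48. Tcf21 had -4.85, -4.30, -5.16 and -4.74. The spread over treatments was small beside the difference itself in each of the 4.

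Irx3 passed on normal diet with drug (-1.10, SE 0.286, limma adjusted p = 0.00867) and on normal diet (-1.10, SE 0.286, limma adjusted p = 0.0136). On HFD with drug it was -0.72 (limma adjusted p = 0.079) and on HFD -0.83 (limma adjusted p = 0.153). With normal diet with drug library 9 labelled subcutaneous left out of the fit, Irx3 passed on HFD with drug (adjusted p = 0.00842) and on HFD (adjusted p = 0.00853), with a difference of -1.55 on normal diet with drug. Nr2f1 passed on normal diet with drug (-0.80, limma adjusted p = 0.00734) and on normal diet (-0.80, limma adjusted p = 0.0116), and not on HFD with drug (-0.14, limma adjusted p = 0.667) or on HFD (-0.58, limma adjusted p = 0.168). Libraries that share a number deviated together only weakly (correlation -0.071 to 0.093), so the number is no block in these fits. With it as a replicate block, in the 16 shared pairs alone, Nr2f1 did not pass on normal diet with drug (limma adjusted p = 0.126). Nor did it pass on normal diet (limma adjusted p = 0.161), or Hand2 on HFD with drug (limma adjusted p = 0.0677). Hand2 passed on HFD with drug (-0.76, limma adjusted p = 0.0316) and on normal diet with drug (-1.07, limma adjusted p = 0.00282). The call on HFD with drug was lost without each of 5 single libraries of the compared groups, 25 and 27 labelled visceral and 26, 27 and 62 labelled subcutaneous (adjusted p 0.051 to 0.0951). Leaving out the libraries rich in other tissues gives no useful test within these treatments, since 2 libraries labelled visceral remained on HFD with drug and 1 each on normal diet with drug and on normal diet.

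Whether a diet or drug effect differed between the labels was tested as an interaction. No member passed, while 1 of 19859 genes did for HFD over normal diet (0.00504% of genes) and 0 did for drug over no drug under HFD (0%). These counts were 482 and 954 with library weights, and leaving out single libraries gave up to 2 and up to 211 genes, the last without HFD with drug library 62 labelled subcutaneous. No member passed in any of these fits. The largest member interactions were 0.44 for Tcf21 with HFD (SE 0.238, limma adjusted p = 0.619) and -0.55 for Tcf21 with drug under HFD (SE 0.238, limma adjusted p = 0.235).

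Levels of different genes can be compared only per length, and the deposited TPM turned out to rest on the length of the whole gene with its introns. With that length, 94.9% of low values came out as whole reads within 0.05 reads, against 33.5% with exon length. The reads, however, appear to have been counted over exons. Among 89 protein-coding genes that lie in an intron of another on the same strand and had a median of at least 10 reads, 71 had more reads than the gene around them, which counting over whole genes would not allow. Deposited TPM therefore places genes with long introns too low relative to others, and Tbx15, whose gene is 30.4 times as long as its exons, is the extreme among the members. The ratio is 5.97 for Irx5, 3.03 for Shox2, 2.12 for En1 and Nr2f1, 1.55 for Hand2, 1.28 for Irx3 and 1.23 for Tcf21. For 1 gene, differences between libraries change less, through the new scaling to a common total and through the added 1 on the log scale. Irx3 labelled visceral was at 16.5 TPM as deposited and 8.33 TPM with exon length in HFD library 22. In HFD with drug library 62 it was at 12.2 and 7.11 TPM.

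TPM recomputed with exon length changed the order of the members. In libraries labelled visceral, Tbx15 had a median of 28.1 exon-length TPM (range 17.2 to 79.6), Shox2 16.5 (6.94 to 27.1), Irx3 6.00 (3.68 to 8.88), En1 5.86 (1.67 to 7.70), Nr2f1 2.72 (1.75 to 5.08) and Irx5 1.37 (0.562 to 3.54), with Hand2 and Tcf21 near 0. Tbx15 was above Shox2 in 19 of 20 libraries and Shox2 above Irx3 in 20 of 20, whereas Irx3 was above En1 in 14 of 20, so these neighbours were not separated. On deposited TPM Tbx15 had instead ranked below Shox2, Irx3, En1 and Nr2f1. In libraries labelled subcutaneous, Tcf21 and Irx3 led with a median of 13.7 exon-length TPM each, and Irx3 was above Tcf21 in 11 of 20 libraries. Nr2f1 followed at 4.38, below Tcf21 in 20 of 20 libraries, and Shox2 at 0.900. Irx5, Hand2, En1 and Tbx15 were at 0.509, 0.506, 0.150 and 0.143 exon-length TPM.

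**Figure D3:**
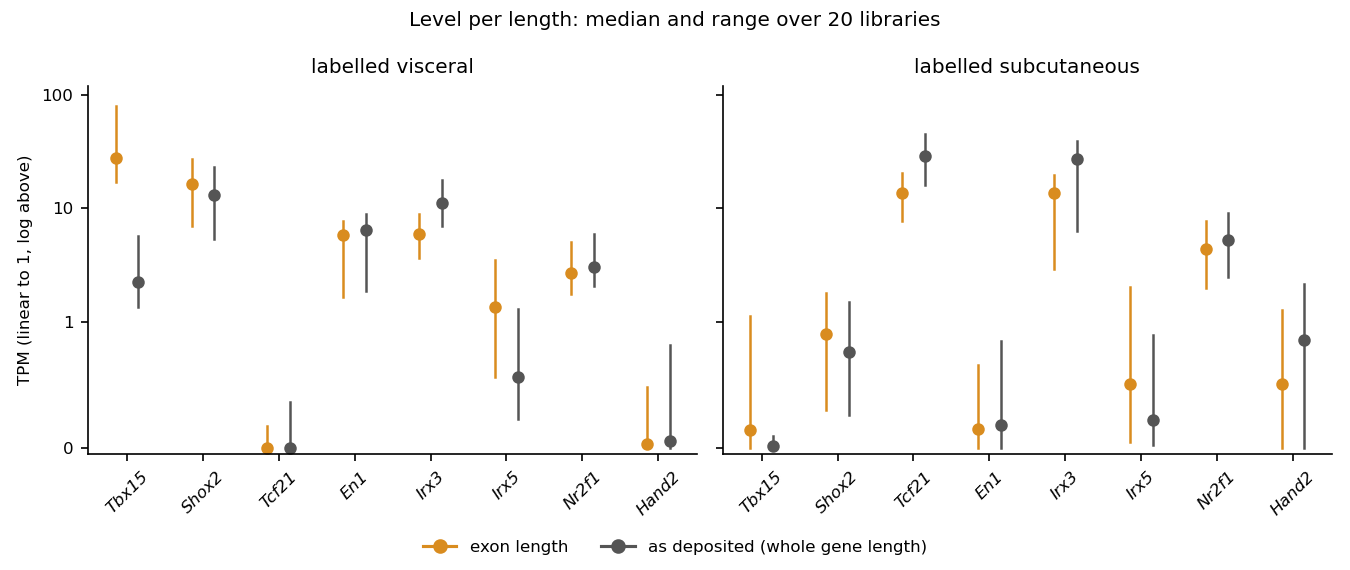
Median (point) and range (line) of each gene over the 20 libraries of a label, in TPM recomputed with exon length and in TPM as deposited; the axis is linear up to 1 TPM and logarithmic above. In libraries labelled visceral Tbx15 is the highest of the 8 genes at 28.1 TPM with exon length and only the fifth, at 2.26 TPM, as deposited.

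The log2 scale with 1 added understates the changes of low genes, and this too fell hardest on Tbx15. On exon-length TPM its difference between labels was 4.65 (SE 0.143, limma adjusted p = 9.15e-24) in place of 1.75. With limma voom on the recovered reads it was 7.40 (SE 0.522, adjusted p = 3.73e-13), with 4.11 for Shox2, 4.89 for En1, -7.83 for Tcf21, -2.42 for Hand2 and 1.43 for Irx5 (adjusted p = 0.000224). Both were added after the values were seen.

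The next question was whether diet or drug moved these genes within a label. Shox2, En1, Tbx15 and Tcf21, which separated the labels, did not pass any diet or drug test. In the label where each is expressed, HFD over normal diet gave 0.10 for Shox2 (SE 0.295, limma adjusted p = 0.859), 0.30 for En1 (SE 0.331, adjusted p = 0.602), 0.00 for Tbx15 (SE 0.270, adjusted p = 0.998) and -0.30 for Tcf21 (SE 0.209, adjusted p = 0.445). Drug over no drug under HFD gave -0.07 for Shox2 (SE 0.295, adjusted p = 0.931), -0.27 for En1 (SE 0.331, adjusted p = 0.72), 0.15 for Tbx15 (SE 0.270, adjusted p = 0.821) and 0.44 for Tcf21 (SE 0.209, adjusted p = 0.149). These SEs leave room for changes of moderate size.

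Tcf21 in libraries labelled subcutaneous was at 23, 23.4, 30.6, 37.8 and 39.8 TPM on HFD with drug and at 16.2, 19.5, 23.4, 23.9 and 29.1 TPM on HFD. On normal diet with drug it was at 25.2, 31.4, 39.5, 39.9 and 45.6 TPM, and on normal diet at 17.7, 27, 28.3, 33.5 and 33.6 TPM. The 4 groups overlapped one another.

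Irx3 was the only member that passed a diet or drug test. Of 5 members tested in libraries labelled visceral, 1 passed for drug over no drug under HFD, where 2.16% of 17094 genes did. That background is unstable: the 369 genes became 0 without HFD library 22 or 50 and 1210 without HFD library 23, and 15 of 20 libraries moved it by over 1.5 times. Irx3 was at 6.93, 8.20, 8.30, 8.46 and 12.2 TPM on HFD with drug and at 9.90, 15.8, 16.1, 16.5 and 17.7 TPM on HFD. The group means were 8.82 ± 1.98 TPM on HFD with drug and 15.2 ± 3.05 TPM on HFD (SD, n = 5 each), and the lowest HFD library lay below the highest HFD with drug library. The log2 change was -0.72 (SE 0.179, limma adjusted p = 0.0459). The call was lost under 24 of 32 alternatives in libraries labelled visceral, among them the fit with no filter (adjusted p = 0.0817), exon-length TPM (adjusted p = 0.101), voom (adjusted p = 0.199) and leaving out any of 16 single libraries, and it is reported as marginal.

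In libraries labelled subcutaneous the same comparison gave Irx3 10.5, 11.5, 13.5, 15.9 and 28.0 TPM on HFD with drug, against 24.8, 26.9, 27, 28.4 and 30.2 TPM on HFD. Here 4 of the 5 HFD with drug libraries lay below every HFD library and library 62 lay among them. The change was -0.83 (SE 0.354, limma adjusted p = 0.106), and no member passed among 4 tested, against 19.2% of 17649 genes. The 3388 genes behind that share were 1684 without HFD library 22, 1731 without HFD library 50 and 1841 without HFD with drug library 25. All genes had a median change of -0.17 in that comparison. Without HFD with drug library 62 the change was -1.05 (limma adjusted p = 0.0475), and without normal diet with drug library 9, which is in neither group but enters the shared spread, it was -0.83 (limma adjusted p = 0.00681). On normal diet, the drug gave -0.19 labelled visceral and -0.19 labelled subcutaneous, neither of which passed (limma adjusted p = 1 and 0.92).

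Endothelial and pericyte genes had lower medians on HFD with drug than on HFD under both labels, as Irx3 did. Adipocyte genes were clearly lower only in libraries labelled visceral. The 7 genes of the endothelial list summed to 600 to 882 TPM on HFD with drug and 930 to 2421 TPM on HFD in libraries labelled visceral, and to 547 to 1606 TPM on HFD with drug and 1332 to 2300 TPM on HFD in those labelled subcutaneous. In libraries labelled visceral, the 7 pericyte and smooth muscle genes summed to 173 to 259 TPM on HFD with drug and 256 to 694 TPM on HFD, and the 8 adipocyte genes to 18736 to 34041 TPM on HFD with drug and 26308 to 49694 TPM on HFD. Labelled subcutaneous, medians on HFD with drug and on HFD were 256 and 375 TPM for pericyte genes and 37454 and 37629 TPM for adipocyte genes. The macrophage list had medians of 2140 and 3878 TPM there, and of 2988 and 2832 TPM labelled visceral. No marker of these lists was at 0 in any of these groups. Their part in the Irx3 values was not tested.

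Nr2f1 in libraries labelled subcutaneous was at 2.48, 4.18, 4.27, 4.54 and 5.40 TPM on HFD, and at 5.52, 6.59, 7.2, 7.21 and 9.14 TPM on normal diet. The groups did not overlap, which 11.5% of genes tested also showed (two-sided exact permutation p = 0.0079, the smallest 5 against 5 allows). The change was -0.67 (SE 0.219, limma adjusted p = 0.0831), so it missed the threshold, with no member of 4 past it against 5.45% of genes. The 961 genes behind that share were 347 to 615 without HFD library 22 or 50 or normal diet library 91, 92 or 99, and 1473 without normal diet with drug library 9. It passed under 4 alternatives, among them a fit of the 2 groups alone (adjusted p = 0.0365) and one without normal diet with drug library 9 (adjusted p = 0.0249).

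In libraries labelled visceral, Nr2f1 was at 2.60, 3.40, 3.66, 4.18 and 5.25 TPM on HFD with drug, at 2.09, 2.19, 2.40, 2.59 and 2.77 TPM on HFD and at 2.41, 2.66, 3.81, 4.13 and 5.93 TPM on normal diet. The change with drug under HFD was 0.48 (SE 0.183, limma adjusted p = 0.167) and with HFD -0.45 (SE 0.183, limma adjusted p = 0.167). No member of 5 passed for HFD over normal diet, against 5.29% of genes. The 905 genes behind that share were 324 to 441 without HFD library 22 or 50 or normal diet library 94, 96 or 99, and 1457 without HFD library 23. Irx3 and Nr2f1 thus stood on opposite sides under the drug in these libraries, though only Irx3 passed.

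Hand2 and Irx5 gave no call for diet or drug. Irx5, under the filter in both labels, was at 0.138 ± 0.0922 TPM on HFD with drug and 0.456 ± 0.257 TPM on HFD labelled subcutaneous (SD, n = 5 each; log2 change -0.34 with no filter, limma adjusted p = 0.184). For drug on normal diet and for the drug by diet interaction no member passed in either label. All genes gave 0% in each of these comparisons, other than the interaction labelled visceral, in which 1 gene passed (0.00585%).

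Within a label, levels of the members were compared with marker lists from library to library. Each member with a median of at least 1 TPM in a label was set against the summed level of 11 marker lists and the mitochondrial share, which made 96 relations over 20 libraries each, with permutation p-values (100000 permutations, two-sided) adjusted over the 96. In 22 of them Pearson's r had an adjusted p under 0.05. No test compared one member's relations with another's. All points of a relation share the tissue label, and the treatments are pooled unless stated. The permutation p-values therefore also take in differences between treatments.

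Tbx15 followed skeletal muscle genes in libraries labelled visceral, with Pearson's r = 0.83 (permutation p = 3.0e-05, adjusted p = 0.00096) and Spearman's rho = 0.82 (permutation p = 3.0e-05, adjusted p = 0.0014). Without the 2 libraries farthest from the median muscle sum r was 0.77, and with treatment means removed it was 0.91. The muscle list summed to 51.1 to 18063 TPM there, highest in HFD with drug library 62, which also had the highest Tbx15 level and 43.5% mitochondrial transcripts. The lowest Tbx15 level of the 20 libraries labelled visceral was 1.34 TPM. Muscle sums labelled subcutaneous were 58.7 to 711 TPM. The part of muscle in the Tbx15 values was not tested. The 3 genes most like Tbx15 there, out of 12906 compared, were Jph2, which encodes junctophilin of muscle membranes (r = 0.97), Ak1, an adenylate kinase (r = 0.96), and Tmod1, which caps actin filaments (r = 0.96).

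En1 and Shox2 followed genes of fat progenitors and fibroblasts in libraries labelled visceral. For En1 r was 0.81 (permutation p = 2.0e-05, adjusted p = 0.00096) and rho 0.84 (permutation p = 3.0e-05, adjusted p = 0.0014), with r = 0.77 without the 2 farthest libraries. For Shox2 r was 0.72 (permutation p = 0.00024, adjusted p = 0.0029) and rho 0.76 (permutation p = 0.00014, adjusted p = 0.0045), with r = 0.76 without the 2 farthest. The genes most like En1 were Sbsn (r = 0.90), Sfrp4, a secreted Wnt inhibitor (r = 0.89), and Dcn, which encodes the matrix proteoglycan decorin (r = 0.89) and is itself in the list. Those most like Shox2 were Gsn, which encodes gelsolin (r = 0.89), Gstm1 (r = 0.85) and Zcchc24 (r = 0.84). Shox2 and En1 had r = 0.71 with each other. Shox2 also followed the list of sympathetic neuron and Schwann cell genes (r = 0.77, permutation p = 7.0e-05, adjusted p = 0.0013; rho = 0.69, permutation p = 0.00083, adjusted p = 0.009; r = 0.67 without the 2 farthest), which summed to 36.3 to 196 TPM labelled visceral and 2.55 to 11.7 TPM labelled subcutaneous.

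Irx3 followed endothelial genes under both labels. In libraries labelled visceral r was 0.74 (permutation p = 0.00011, adjusted p = 0.0018) and rho 0.68 (permutation p = 0.0012, adjusted p = 0.011), with r = 0.66 without the 2 farthest libraries. There Irx3 also followed adipocyte genes (r = 0.67, permutation p = 0.0015, adjusted p = 0.014; rho = 0.69, permutation p = 0.00074, adjusted p = 0.009; r = 0.57 without the 2 farthest) and pericyte genes (r = 0.62, permutation p = 0.0025, adjusted p = 0.017; rho = 0.56, permutation p = 0.011, adjusted p = 0.059; r = 0.50 without the 2 farthest). With treatment means removed, these r labelled visceral were smaller, at 0.60 for endothelial, 0.45 for adipocyte and 0.46 for pericyte genes. In libraries labelled subcutaneous r with endothelial genes was 0.88 (permutation p = 1.0e-05, the smallest these permutations can give, adjusted p = 0.00096) and rho 0.74 (permutation p = 0.00031, adjusted p = 0.0074), with r = 0.71 without the 2 farthest, of which normal diet with drug library 9 had the lowest endothelial sum of 345 TPM. Here r was 0.92 with treatment means removed. In that label Irx3 also had r = 0.79 with progenitor genes (permutation p = 0.00013, adjusted p = 0.0018) and r = -0.71 with epithelial genes (permutation p = 0.00063, adjusted p = 0.006), but rho was 0.48 (permutation p = 0.035, adjusted p = 0.11) and -0.45 (permutation p = 0.047, adjusted p = 0.12), and without the 2 farthest libraries r was 0.47 and -0.49, so these rest largely on those libraries. Weaker relations of Irx3 there were those with adipocyte genes (r = 0.60, adjusted permutation p = 0.048) and macrophage genes (r = 0.59, adjusted permutation p = 0.042). For adipocyte genes rho was only 0.20 (adjusted permutation p = 0.52) and r was 0.37 without the 2 farthest libraries, so this relation too rests largely on them. For macrophage genes rho was 0.51 (adjusted permutation p = 0.086) and r was 0.88 without the 2 farthest. The genes most like Irx3 labelled subcutaneous were Esam, an adhesion molecule of endothelial cells (r = 0.92), Acvrl1, an endothelial receptor for TGF-beta family ligands (r = 0.92), and Fam43a (r = 0.91). Labelled visceral they were Sema4c (r = 0.91), Apold1 (r = 0.86) and Rasip1 (r = 0.85), the last 2 known from endothelial cells.

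Tcf21 in libraries labelled subcutaneous followed 8 keratin and epithelial genes (r = 0.78, permutation p = 6.0e-05, adjusted p = 0.0013; rho = 0.69, permutation p = 0.00084, adjusted p = 0.009; r = 0.71 without the 2 farthest) and ran against adipocyte genes (r = -0.69, permutation p = 0.0003, adjusted p = 0.0032; rho = -0.73, permutation p = 0.00052, adjusted p = 0.0083; r = -0.60 without the 2 farthest). The 4 highest epithelial sums, 165 to 329 TPM, were in the 4 libraries with the highest epididymis and testis sums, 4715 to 43781 TPM, a list that Tcf21 also followed (r = 0.58, permutation p = 0.008, adjusted p = 0.042; rho = 0.51, permutation p = 0.022, adjusted p = 0.086; r = 0.41 without the 2 farthest). The part of epididymal tissue in these relations was not tested. The genes most like it were Il33, an alarmin cytokine made by mesenchymal cells of fat (r = 0.92), Bhlhe22 (r = 0.91) and Cpxm2 (r = 0.87). Nr2f1 was most like Vwa1 (r = 0.92), Crispld2 (r = 0.91) and Fez1 (r = 0.90) labelled subcutaneous, and most like Gpank1 (r = 0.91), Trav15-1-dv6-1 (r = 0.90) and Pdcd7 (r = 0.88) labelled visceral. Of these, Trav15-1-dv6-1 had a median of 0 TPM labelled visceral, so its r rests on few libraries with reads or on values near 0. The list of B lymphocyte genes, whose sums lay between 152 and 20556 TPM, ran against Shox2 in libraries labelled visceral (r = -0.65, permutation p = 0.002, adjusted p = 0.015; rho = -0.72, permutation p = 0.00045, adjusted p = 0.0083; r = -0.60 without the 2 farthest) and with Nr2f1 (r = 0.62, permutation p = 0.0037, adjusted p = 0.024; rho = 0.58, permutation p = 0.0089, adjusted p = 0.053; r = 0.71 without the 2 farthest). For Tbx15 it had r = -0.54 (permutation p = 0.014, adjusted p = 0.055) and rho = -0.64 (permutation p = 0.0031, adjusted p = 0.027). Nr2f1 labelled visceral also ran against adipocyte genes (r = -0.66, adjusted permutation p = 0.015, rho = -0.63, adjusted permutation p = 0.028, r = -0.50 with treatment means removed). Against skeletal muscle genes it had r = -0.59 (adjusted permutation p = 0.04) and rho = -0.55 (adjusted permutation p = 0.069). Labelled subcutaneous, Nr2f1 followed mesothelial genes (r = 0.59, adjusted permutation p = 0.036, rho = 0.63, adjusted permutation p = 0.028). Irx3 and Nr2f1 had r = -0.62 with each other in libraries labelled visceral and r = 0.60 in those labelled subcutaneous, values whose difference was not tested.

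**Figure D4:**
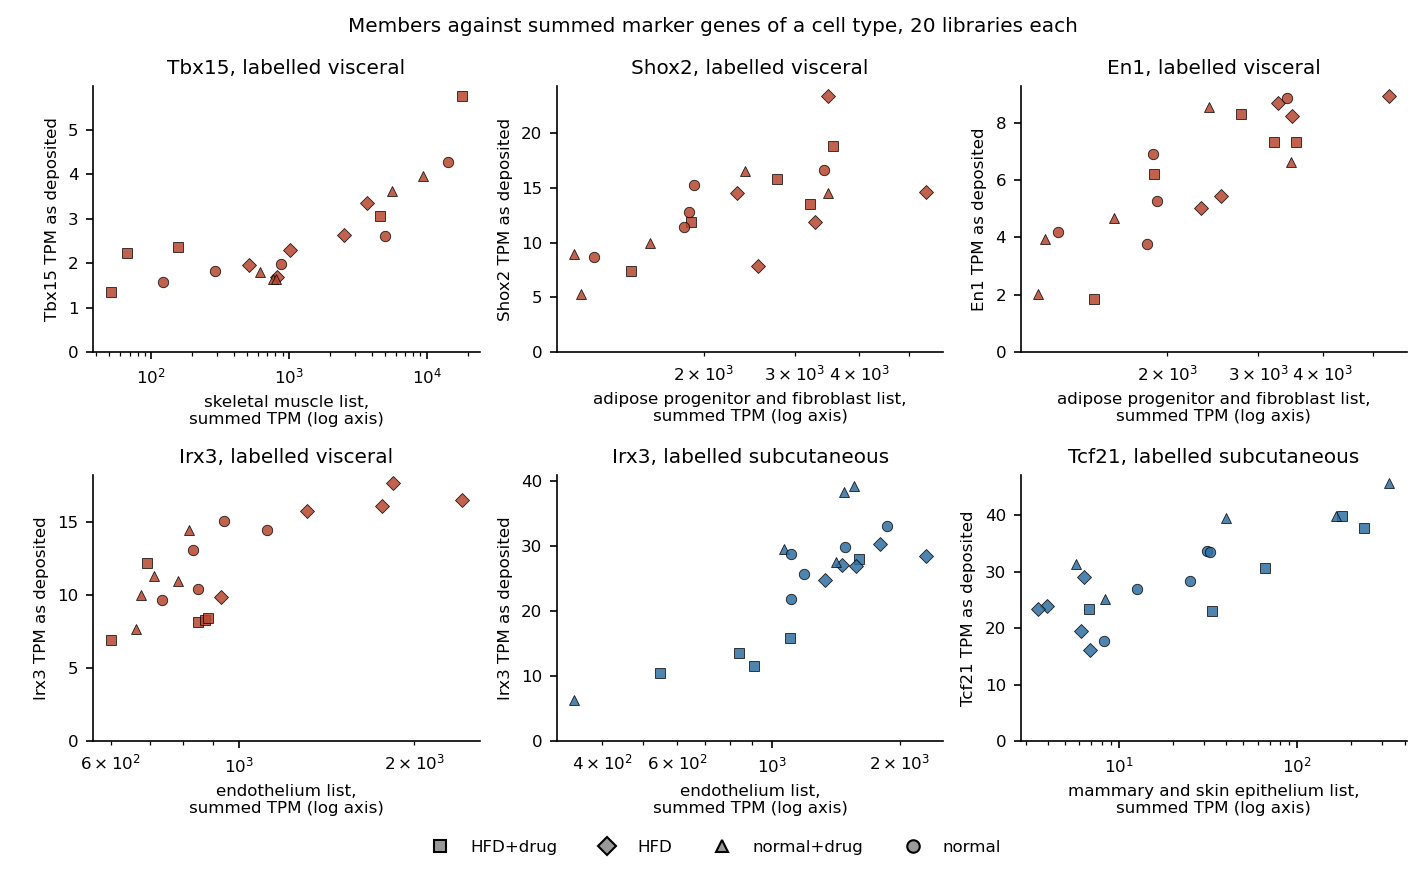
Deposited TPM of a member (vertical axis) against the summed TPM of a marker list (horizontal axis, logarithmic) in the 20 libraries of a label, with a symbol for each treatment. The highest Tbx15 value, 5.76 TPM, stands at the highest muscle sum, and Irx3 has its lowest value labelled subcutaneous, 6.26 TPM, in the library with the lowest endothelial sum.

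Reads on the 2 strands may not be told apart, since neither the strand setting of the counting nor a strand-marking kit is stated. Of the members' exon bases, 19.6% of Hand2 are shared with the antisense gene Hand2os1, 4.62% of Shox2 with Rsrc1, 4.49% of Irx3 with Irx3os and 2.42% of Nr2f1 with A830082K12Rik. Hand2os1 was at 0.00564 ± 0.00964 TPM labelled visceral and 0.158 ± 0.121 TPM labelled subcutaneous (SD, n = 20 each), the same side as Hand2. Irx3os was at 0.506 ± 0.229 TPM labelled visceral and 0.523 ± 0.278 TPM labelled subcutaneous, with no such difference to see. All these neighbours were below the filter.

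A wider list of 67 position-related transcription factors, of which 66 were in the table, placed the members among their relatives. In the comparison of labels 35 were tested, and 7 were higher and 14 lower in libraries labelled visceral, which is 60.0% of the list beside 36.8% of all genes. The list's median difference was -0.13, against -0.05 for all genes. Wt1 and Bnc1 were among those that passed without overlap of the labels. Wt1 and Bnc1, both known from mesothelium and both in the mesothelial list above, were at 0.0114 ± 0.0154 and 0.0113 ± 0.0155 TPM labelled visceral and at 3.70 ± 1.86 and 2.82 ± 1.86 TPM labelled subcutaneous, with differences of -2.11 (SE 0.109, limma adjusted p = 6.13e-17) and -1.76 (SE 0.133, limma adjusted p = 2.15e-12).

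For HFD over normal diet labelled subcutaneous, 2 of 34 tested relatives passed (5.88%, beside 5.45% of all genes), and both fell. They were the T-box gene Tbx3 (log2 change -1.56, SE 0.362, limma adjusted p = 0.0183) and Nr2f2, the paralog of Nr2f1 (-0.72, SE 0.20, limma adjusted p = 0.0427). For drug under HFD in that label 2 rose and 4 fell (17.6%, beside 19.2% of all genes), among them Emx2 (2.57, SE 0.860, limma adjusted p = 0.0439) and Irx2 (2.41, SE 0.622, limma adjusted p = 0.0145) that rose, and Prrx1 (-1.14, SE 0.271, limma adjusted p = 0.00992) and Meox1 (-0.82, SE 0.25, limma adjusted p = 0.0304) that fell. Irx2 thus differed from Irx3 in direction, though Irx3 did not pass there. In libraries labelled visceral none of 26 tested relatives passed for diet or drug.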

How the data were processed

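RNA was extracted with an RNeasy kit and made into NEBNext libraries, per the labels' protocols. Build GRCm39 and the tools STAR 2.7.8, featureCounts 2.0.3, FastQC 0.11.9 and DESeq2 1.32.0 are listed in the submitters' processing notes. The authors deposited 1 table of TPM values for 40 libraries, with every library summing to 998276 TPM; 15340 genes were at 0 throughout. Low values fell on whole multiples of 1 read when gene length included introns, which gave back the reads and the depth (15.4 to 27 M reads per library).

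Tests used limma 3.58.1 in R 4.3.3 on log2(TPM + 1), with trend and robust variance, after keeping genes at 1 TPM or more in 5 or more of the fitted libraries and with Benjamini-Hochberg adjustment over all genes (threshold 0.05). Comparisons of tissue labels and interactions came from all 40 libraries, and diet and drug comparisons from the 20 libraries of a label. A fold change on this scale understates changes of low genes. Alternatives were other pseudocounts (0.25 and 5), no filter or a filter of 10 TPM, quantile normalization, library weights, 2-group fits, a replicate block, leaving out libraries, and 3 added after seeing the data (exon-length TPM, voom on recovered reads, totals without mitochondrial and other-tissue genes). On simulated data, of genes changed by a log2 fold of 1, limma recovered 78% for the mean difference of labels, 47% for labels on HFD, 53% for drug under HFD labelled visceral and 56% for HFD over normal diet labelled subcutaneous, with 1, 11, 5 and 4 false calls. The changed genes were drawn from those with a mean of at least 2 TPM, which Hand2 and Irx5 did not reach under either label. Simulated noise was independent between genes, so tissue content shared by many genes was not modelled. Counting intervals are exact at the 95% level and cover counting error only.

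The 8 genes, the related list and the marker lists were chosen with earlier results of these data known. All 8 genes are described; for each, the 3 genes with the highest r within a label are named. Relatives named with values were taken from those that passed, without overlap in the comparison of labels; 1 of them is not reported here.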

Additional observations from a re-analysis of the deposited data

Results flagged for a closer look

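In 6 of 64 groups of 5 libraries, 1 library stood apart from the other 4 by Dixon's criterion, where chance alone picks out about 1 group in 20. Tbx15 had its highest value on HFD labelled subcutaneous in library 23 (0.0929 TPM) and on normal diet labelled subcutaneous in library 96 (0.051 TPM). Shox2 was highest on normal diet with drug labelled subcutaneous in library 2 (1.33 TPM), still below every library labelled visceral. Tcf21 reached 0.111 TPM on normal diet with drug labelled visceral in library 6, which is 1 read against 0 in the other 4 libraries; 4 equal values and 1 other always meet the criterion, so this one carries no weight. Irx5 reached 0.898 TPM on HFD labelled subcutaneous in library 82. Irx3 was lowest on HFD labelled visceral in library 23 (9.9 TPM), which is the library that overlapped with HFD with drug. No effect of diet or drug on a member was found to differ between labels by an interaction test (0 passed).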

How the results depend on the processing

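Of 3623 values of single members under alternatives, 3458 kept their direction and their side of the threshold, 111 that were not called changed sign, 38 lost and 16 gained a call, and none reversed a call. Tbx15, Shox2, Tcf21 and En1 kept their difference between labels wherever they were tested. With a filter of 10 TPM the members called between labels were 2 on HFD with drug, 2 on HFD, 3 on normal diet with drug, 3 on normal diet and 3 in the mean of 4, since fewer were tested. For HFD over normal diet labelled subcutaneous, 1 member (Nr2f1) passed with library weights, without the libraries rich in other tissues and in a fit of the 2 groups, and labelled visceral 1 passed with library weights. For drug under HFD labelled subcutaneous, 1 (Irx3) passed under the same 3 settings. Labelled visceral, 0 passed with no filter, quantile normalization, exon-length TPM, voom, a fit of the 2 groups, totals without mitochondrial and other-tissue genes, without the rich libraries and without library 62, and 2 with library weights. The cause was not tested.

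Leaving out 1 library at a time gave 4 to 6 members on HFD with drug, 4 to 5 on HFD, 7 on normal diet with drug, 6 on normal diet and 7 in the mean of 4. It gave 0 to 1 for HFD over normal diet labelled subcutaneous and for drug under HFD in either label. Over all genes, the mean difference of labels was called in 7315 genes, in 2863 without the rich libraries and in 8602 with library weights.

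Libraries that share a number deviated together only weakly (16 pairs, correlation -0.071 to 0.093, median 0.028). In 7 pairs the correlation was highest with the own number. The main fits did not take the numbers as pairs. With the replicate block, 4 members passed between labels on HFD with drug, 4 on HFD, 6 on normal diet with drug, 5 on normal diet and 7 in the mean of 4, and 0 in each interaction; the calls lost were those of Nr2f1 on normal diet and on normal diet with drug and of Hand2 on HFD with drug.

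Hand2, Irx5 and the near-absent Tcf21 and Tbx15 rest on 67 or fewer reads per library, so small changes in them were not detectable at this depth.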
